A study of Mus musculus with 4 samples.

Results

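The genes described here encode the kinases of the mitogen-activated protein (MAP) kinase cascades. They were chosen by symbol, as the numbered Map4k, Map3k, Map2k, Mapk and Mapkapk genes without Map3k7 and Map3k8, and with at least 10 reads summed over the 4 libraries. The rule matched 42 of 24411 gene symbols, and 35 met the count minimum: 5 MAP4K, 13 MAP3K, 7 MAP2K, 7 MAPK and 3 MAPKAPK genes. The 7 that did not were Mapk4, Mapk10, Mapk12, Mapk13, Mapk15 and Map3k19, with 0 reads, and Mapk11, with 2 reads. The members nearest the minimum were Map4k1, with 22 reads in all, and Map3k13, with 28.

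RNA was sequenced from BV2 cells, an immortalised mouse microglial line, and the labels give all 4 libraries the genotype Pu.1 KO, made with CRISPR-Cas9 (PU.1 is the ETS transcription factor that Spi1 encodes). Untreated cells gave 2 libraries, and cells given lipopolysaccharide (LPS) at 10 ng/ml, the bacterial ligand of the receptor TLR4, gave 2. The exposure is 2 h by the source name and 4 h by the title of the same samples, so the time is uncertain. Unedited cells are not analysed here, and the labels do not say whether the edited cells are a single clone or whether the libraries came from separate cultures. The p-values below therefore measure the spread between these libraries, which may be technical. Gene counts totalled 3256197 to 4502105 reads per library. Spi1 transcript remained, at 844 and 743 reads (162 and 165 CPM) untreated and 745 and 958 reads (257 and 289.8 CPM) after LPS, and rose (edgeR log2 fold change 0.75 ± 0.09 SE, adjusted p = 4.0e-11); the deleted or edited bases are not visible in gene counts. All 8 microglia and macrophage markers were detected, summing to 1874 to 1913 in untreated and 2259 to 2342 in LPS libraries (CPM, the counts-per-million value, here of unscaled libraries). The 5 neuron and 4 epithelial markers had 0 reads, and fibroblast, astrocyte and lymphocyte markers summed to at most 0.614 on that scale. Endothelial markers (3 of 6 at 0: Pecam1, Tek and Cldn5) summed to 25.5 to 26.4 untreated and 29.9 to 44.2 after LPS, and their part in the results was not tested. Tnf, an inflammatory cytokine gene used as a check of the treatment, was at 19.5 and 15.9 CPM untreated and 787 and 897 CPM after LPS. Reads in no feature were 53.0% and 51.8% of uniquely placed reads untreated and 59.1% and 57.4% after LPS, and unmapped reads 19.0% and 20.7% of all reads against 23.0% and 24.2%. Both moved with the treatment, and their part in the results was not tested. The CPM of Spi1 and Tnf and all later CPM are of the scaled library size.

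MAP kinase cascades pass a signal through a chain of kinases, each phosphorylating the next. A MAP4K or a small GTPase engages a MAP3K, which activates a MAP2K, which activates a MAPK by phosphorylating a threonine and a tyrosine in its activation loop, and the MAPKAPK kinases are among the targets of the MAPK. In microglia and macrophages, TLR4 signalling is known to activate the ERK, JNK and p38 branches within minutes, by phosphorylation. Transcript levels, which are what was measured here, do not report that activity.

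LPS moved the transcripts of these kinases both ways, with few large changes. Of the 35 genes, 9 rose and 9 fell at an edgeR adjusted p below 0.05, and 17 did not pass. Those counts are 25.7% in each direction, against 24.9% higher and 23.9% lower among all 10920 genes tested, so the members' shares lie near the background. The median log2 fold change of the 35 was -0.17, against -0.0024 over all genes. It turned to 0.050 with GC-corrected offsets and to 0.017 with edgeR's own expression filter, and lay between -0.114 and -0.0377 when any 1 library was left out. In bulk RNA, fewer cells of a kind and less transcript per cell cannot be told apart. Both LPS libraries lay above both untreated libraries in 13 members and below them in 15, that is 37.1% and 42.9%, against 36.4% and 36.8% of all genes. Within that mixed picture the largest called rises were of Mapkapk2, which encodes the p38 target kinase MK2, Map4k3 and Map2k1, which encodes MEK1. The largest called falls were of Mapk7, which encodes ERK5, Map4k2 and Map3k1.

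**Figure D1:**
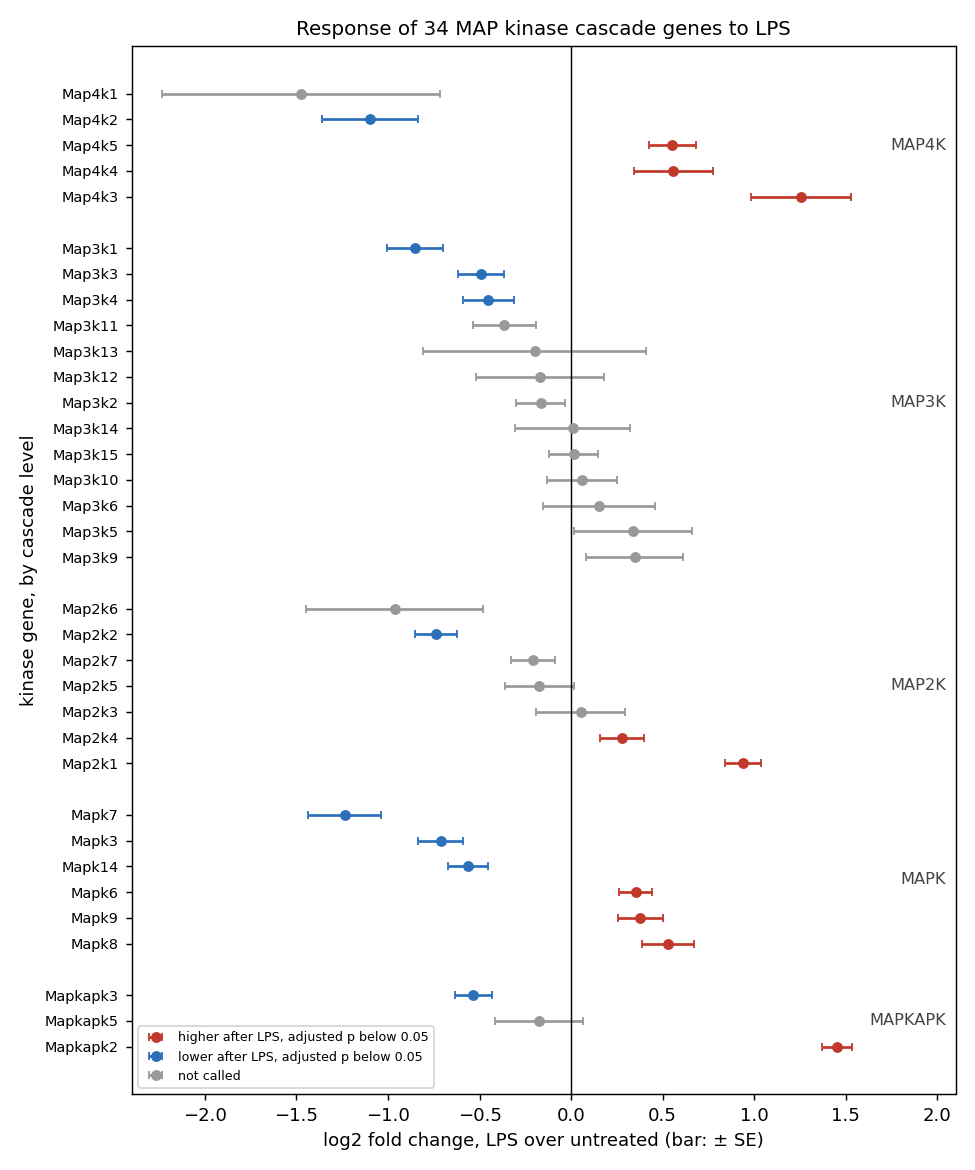
Log2 fold change of 34 of the 35 kinase genes (x axis, LPS over untreated, bars ± SE of the edgeR fit) by cascade level (y axis), coloured by the call. Every level except MAP3K holds genes called in both directions, and the called values run from -1.24 (Mapk7) to 1.45 (Mapkapk2).

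The promoters of 30 of the 35 members could be matched by symbol in RefSeq, on build GRCm38.p6, as 41 windows of the 250 bases before a start site. Shown 5′ to 3′ are the windows of Mapkapk2 (chr1:131097844-131098093, minus strand) and Map2k1 (chr9:64253606-64253855, minus strand), which rose, and of Map4k2 (chr19:6340910-6341159, plus strand) and Mapk7 (chr11:61494267-61494516, minus strand), which fell. Capitals mark matches, on either strand, to any of 5 motifs: the NF-kB site, the AP-1 site TGANTCA, the cyclic AMP element TGACGTCA, the GC box GGGCGG and the ETS core GAGGAA.
Mapkapk2: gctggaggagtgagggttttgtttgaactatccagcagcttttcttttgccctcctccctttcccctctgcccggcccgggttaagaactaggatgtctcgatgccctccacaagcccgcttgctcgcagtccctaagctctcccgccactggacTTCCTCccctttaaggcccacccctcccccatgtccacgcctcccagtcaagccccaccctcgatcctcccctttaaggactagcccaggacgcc
Map2k1: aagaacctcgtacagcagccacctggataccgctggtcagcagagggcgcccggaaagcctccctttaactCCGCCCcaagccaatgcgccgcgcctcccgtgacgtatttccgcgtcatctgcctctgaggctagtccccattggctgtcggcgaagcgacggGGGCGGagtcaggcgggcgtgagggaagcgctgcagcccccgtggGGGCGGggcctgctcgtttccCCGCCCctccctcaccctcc
Map4k2: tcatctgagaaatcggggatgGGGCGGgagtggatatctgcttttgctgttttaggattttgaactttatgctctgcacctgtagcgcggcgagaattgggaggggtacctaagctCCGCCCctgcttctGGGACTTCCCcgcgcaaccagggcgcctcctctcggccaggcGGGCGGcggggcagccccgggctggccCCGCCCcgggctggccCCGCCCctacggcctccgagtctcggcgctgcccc
Mapk7: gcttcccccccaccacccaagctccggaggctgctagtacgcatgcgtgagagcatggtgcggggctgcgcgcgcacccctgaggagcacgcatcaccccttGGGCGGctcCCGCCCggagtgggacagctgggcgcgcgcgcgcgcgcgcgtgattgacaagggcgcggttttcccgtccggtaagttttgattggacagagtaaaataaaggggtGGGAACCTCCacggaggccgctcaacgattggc

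An NF-kB match stood in the windows of Map4k1, Map4k2 and Mapk7, that is in 4 of 41 member windows (9.76%), against 8.84% of 10631 windows of tested genes and 7.25% of all 32851 windows. The Mapk7 windows overlap each other and hold the same match, so the matches fall in 3 of 30 members. The match starts 120 bases before the Map4k2 start and 33 bases before the Mapk7 start shown. Of the 9 members that rose, the 8 with a window (Map4k4 has none in the table) held no NF-kB, AP-1 or cyclic AMP element match in it. These stand in 8.84%, 4.39% and 2.80% of windows of tested genes, in that order. Absence from so few windows therefore does not set the rises apart from the falls. An AP-1 match stood in windows of Map2k6, Map2k7 and Map3k10 (7.32% of member windows, 4.39% of windows of tested genes), and no member window held the cyclic AMP element (2.80% of windows of tested genes). The ETS core stood in windows of Map2k7, Map3k3, Map3k5 and Mapkapk2 (9.76% of member windows, 22.7% of windows of tested genes), where the Mapkapk2 match is the only capital run in its window. GC boxes were common in both, at 53.7% of member windows and 58.2% of windows of tested genes, and the Map2k1 window held 4. GC boxes may overlap each other and other motifs. A match is a run of letters and not a measured site.

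At the top of the cascade the MAP4K genes, which encode STE20-type kinases, split by member. Map4k3, whose product takes part in amino acid sensing as well, was at 5.75 and 5.09 CPM untreated and at 13.5 and 12.7 CPM after LPS. It rose 2.39-fold (edgeR log2 fold change 1.26 ± 0.27 SE, adjusted p = 6.6e-05), and the groups did not overlap. The counts were low, at 30 and 23 reads untreated and 39 and 42 after LPS. Map4k5 was at 42.9 and 42.7 CPM untreated and at 56.9 and 68.4 CPM after LPS, a 1.47-fold rise (log2 change 0.55 ± 0.13 SE). Map4k4, which encodes a kinase linked to TNF signalling and cell migration, went from 11.1 and 12.6 CPM to 20.4 and 14.8 CPM. That rise, 1.47-fold with an edgeR adjusted p of 0.027, was lost without LPS replicate 1, untreated replicate 1 or untreated replicate 2 (edgeR adjusted p of 0.324, 0.181 and 0.0515), with DESeq2 (0.236) and with upper quartile scaling (0.0687). Map4k2, which encodes the germinal centre kinase, went the other way, from 12.5 and 17.5 CPM to 6.55 and 7.26 CPM (edgeR log2 fold change -1.10 ± 0.26 SE, adjusted p = 0.00027). Map4k1, a kinase gene of blood cells, had 11 and 7 reads untreated and 2 and 2 after LPS, and its log2 fold change of -1.47 (SE 0.76) did not pass the test at that depth. Summed over the 5 genes, MAP4K reads made up 76.9 ± 3.65 CPM without and 101 ± 4.08 CPM with LPS (SD, n = 2 each).

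Of the 13 MAP3K genes under the rule, which leaves out Map3k7 and Map3k8, none was called higher with TMM scaling and no GC correction. With edgeR, 3 of the 13 fell and 10 did not pass, beside 24.9% higher and 23.9% lower over all genes; at an unadjusted p below 0.05 none was higher and 4 were lower, and with DESeq2 none was higher and 2 were lower. With GC-corrected offsets 2 were higher (Map3k9 and Map3k10), and with library size alone 6 were lower. Over all 10920 genes DESeq2 called 1831 higher and 1473 lower, GC-corrected offsets 2768 and 2299, and library size alone 1457 and 4817. No such count over all genes is given for the unadjusted p. All 3 that fell belong to the MEKK group of 4 genes, which act upstream of several MAPK branches. Map3k1, which encodes MEKK1, a kinase with a ubiquitin ligase domain, was at 41.6 and 50.5 CPM untreated and at 28.3 and 22.7 CPM after LPS, 1.81-fold lower (edgeR log2 fold change -0.85 ± 0.15 SE, adjusted p = 1.9e-06). Map3k3, which encodes MEKK3, an activator of the ERK5 branch, was even in the untreated libraries, at 73.2 and 73.5 CPM, and lower after LPS, at 57.6 and 47.2 CPM (log2 change -0.49 ± 0.12 SE). Map3k4, which encodes MEKK4, the kinase that GADD45 proteins bind, fell from 46.4 and 47.2 CPM to 33.5 and 34.8 CPM (log2 change -0.45 ± 0.14 SE). Its call was lost with DESeq2 (adjusted p = 0.112), with GC-corrected offsets (0.126) and without untreated replicate 2 (0.0536). The fourth of the group, Map3k2, had a log2 fold change of -0.17 (SE 0.13) with the LPS libraries just under the untreated.

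The remaining MAP3K genes did not pass. Map3k11, a mixed-lineage kinase gene, was at 24.7 and 35.2 CPM untreated and at 25.5 and 20.9 CPM after LPS, so that the groups overlapped (edgeR log2 fold change -0.36 ± 0.17 SE, adjusted p = 0.0765). Without untreated replicate 1 it was called lower (edgeR adjusted p = 0.0156), as it was without LPS replicate 1 (0.0281) and with upper quartile scaling (0.0245). Map3k14, which encodes NIK, the kinase of the non-canonical NF-kB pathway, was at 6.32 and 6.87 CPM untreated and at 8.28 and 5.14 CPM after LPS, with the LPS libraries on either side of the untreated. Map3k5, which encodes the oxidative stress kinase ASK1, was at 5.17 and 5.54 CPM and at 6.90 and 6.65 CPM (log2 change 0.34 ± 0.32 SE); the groups did not overlap, but 20 to 27 reads per library left the difference within the error. The mixed-lineage kinase genes Map3k9, Map3k10, Map3k12 and Map3k13 had log2 fold changes of 0.35, 0.06, -0.17 and -0.20, with SE of 0.27, 0.19, 0.35 and 0.61. Map3k6 and Map3k15, which belong with Map3k5 to the ASK group, had 0.15 (SE 0.31) and 0.01 (SE 0.13). Map3k15 was the most abundant of the ASK genes per length, at 10.1 CPM per kilobase untreated. In sum the MAP3K reads made up 339 ± 17.5 CPM without and 278 ± 17.6 CPM with LPS (SD, n = 2 each).

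The MAP2K genes encode the dual-specificity kinases that phosphorylate the MAPK. The closely related ERK activators moved apart. Map2k1, for MEK1, was at 93.5 and 97.9 CPM untreated and at 166 and 200.2 CPM after LPS, a 1.92-fold rise (edgeR log2 fold change 0.94 ± 0.10 SE, adjusted p = 2.7e-13). Map2k2, for MEK2, was at 113 and 109 CPM untreated and at 73.1 and 60.5 CPM after LPS, 1.67-fold lower (edgeR log2 fold change -0.74 ± 0.11 SE, adjusted p = 4.9e-08). Neither pair of groups overlapped, and both calls held in all 16 alternatives, although the log2 fold change of Map2k2 was -0.33 with GC-corrected offsets. Of the JNK activators, Map2k4 (MKK4) was at 64.2 and 59.6 CPM untreated and at 76.9 and 73.5 CPM after LPS, and Map2k7 (MKK7) at 69.6 and 73.5 CPM and at 60.03 and 63.5 CPM. Map2k4 was called higher by a narrow margin (edgeR log2 fold change 0.28 ± 0.12 SE, adjusted p = 0.0463), with an adjusted p of 0.0506 with the replicate number as a block and a log2 fold change of -0.07 when libraries were scaled by size alone. The Map2k4 call held in only 5 of the 16 alternatives. It was lost with DESeq2 (adjusted p = 0.225), with upper quartile scaling (edgeR adjusted p = 0.199) and with GC-corrected offsets (edgeR adjusted p = 0.223). Its call was lost without untreated replicate 1, untreated replicate 2 or LPS replicate 1 as well, at edgeR adjusted p of 0.116, 0.307 and 0.112. Map2k7 did not pass (edgeR log2 fold change -0.21 ± 0.12 SE, adjusted p = 0.148).

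The p38 activators had low counts. Map2k3 (MKK3) was at 11.9 and 10.4 CPM untreated and at 11.04 and 12.1 CPM after LPS, with overlapping groups (log2 change 0.05 ± 0.24 SE). Map2k6 (MKK6) was at 3.45 and 4.21 CPM untreated and at 2.41 and 1.51 CPM after LPS, from 18 and 19 reads against 7 and 5. Its log2 fold change of -0.96 (SE 0.48) had an edgeR adjusted p of 0.0922 and did not pass. Map2k5, the activator of ERK5, had a log2 fold change of -0.17 (SE 0.19). The whole MAP2K level summed to 375 ± 1.17 CPM without and 418 ± 16.8 CPM with LPS (SD, n = 2 each).

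Of the MAPK genes, 3 rose, 3 fell and 1 did not pass, beside 24.9% higher and 23.9% lower over all genes. With DESeq2 1 MAPK gene was higher, and with library size alone 0 were, where 1831 and 1457 of all 10920 genes were higher. Mapk3, which encodes ERK1, fell from 79.1 and 74.4 CPM to 46.2 and 47.5 CPM, 1.64-fold (edgeR log2 fold change -0.71 ± 0.12 SE, adjusted p = 1.2e-06). Mapk14, which encodes p38 alpha, was at 118 and 115 CPM untreated and at 82.8 and 75.3 CPM after LPS (edgeR log2 fold change -0.56 ± 0.11 SE, adjusted p = 8.0e-06). It was the single p38 gene above the count minimum, with 240 to 616 reads per library against 0 or 1 of Mapk11 and 0 of Mapk12 and Mapk13.

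Mapk8 and Mapk9, the JNK genes above the count minimum, were called higher, though neither call held in every alternative. Mapk8, for JNK1, was at 31.0 and 29.5 CPM untreated and at 45.5 and 42.0 CPM after LPS (edgeR log2 fold change 0.53 ± 0.14 SE, adjusted p = 0.0013). Mapk9, for JNK2, went from 60.4 and 49.4 CPM to 73.1 and 70.2 CPM (edgeR log2 fold change 0.38 ± 0.12 SE, adjusted p = 0.0078). Mapk10, the JNK3 gene known from neurons, had 0 reads. Neither JNK call held with DESeq2, at adjusted p of 0.0564 for Mapk8 and 0.104 for Mapk9. With library size alone both calls were lost as well, at log2 fold changes of 0.18 for Mapk8 and 0.028 for Mapk9. That of Mapk8 was lost with GC-corrected offsets (edgeR adjusted p = 0.103) and that of Mapk9 without untreated replicate 2 (0.269).

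Mapk7, for ERK5, showed the largest fall called among the 35, from 28.6 and 26.1 CPM to 13.1 and 10.3 CPM (2.36-fold, edgeR log2 fold change -1.24 ± 0.20 SE, adjusted p = 1.5e-07). The atypical MAPK gene Mapk6, for ERK3, rose from 179.9 and 179 CPM to 231 and 227 CPM (edgeR log2 fold change 0.35 ± 0.09 SE, adjusted p = 0.00073). Its replicates lay close together within each group. Scaled by library size alone, its log2 fold change was 0.0033.

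Below the MAPK, the MAPKAPK genes encode kinases that phosphorylate, among others, the mRNA-binding protein tristetraprolin and small heat shock proteins. Mapkapk2, for MK2, was the most abundant of all 35 per transcript length and had the largest rise called. It was at 589.6 and 580.0 CPM untreated and at 1579 and 1620 CPM after LPS, 2.73-fold (edgeR log2 fold change 1.45 ± 0.08 SE, adjusted p = 8.2e-28). Mapkapk3, for MK3, which shares substrates with MK2, fell from 140 and 159 CPM to 99.4 and 107 CPM (1.45-fold, edgeR log2 fold change -0.53 ± 0.10 SE, adjusted p = 5.9e-06). Mapkapk5, for MK5, known as a partner of ERK3, was at 12.6 and 11.3 CPM and at 10.3 and 10.9 CPM (log2 change -0.17 ± 0.24 SE), which did not pass. The sum of the 3 went from 746 ± 5.50 CPM to 1713 ± 34.2 CPM (SD, n = 2 each), with Mapkapk2 higher and Mapkapk3 lower.

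**Figure D2:**
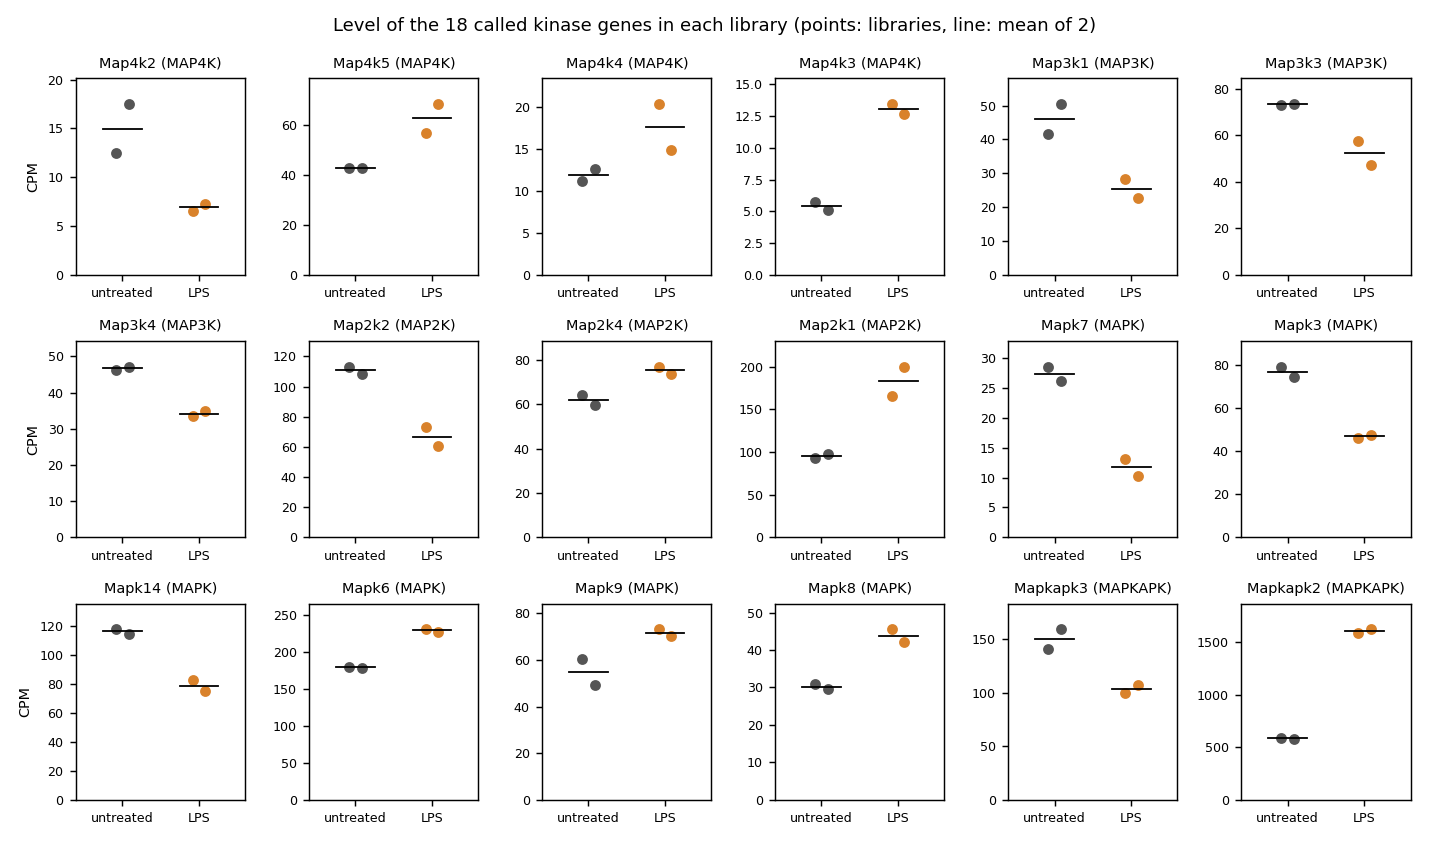
CPM of the 18 kinase genes called in either direction (y axis, starting at 0) in the 2 untreated and 2 LPS libraries (points), with each group's mean as a line. The genes were picked by their call in these same libraries, so separated groups are no further evidence. The groups do not overlap in any panel, most widely for Mapkapk2 (580.0 to 589.6 CPM against 1579 to 1620 CPM). Of all 10920 genes, 36.4% had both LPS libraries above both untreated ones and 36.8% below.

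The shares of reads within pairs of related kinases do not depend on how libraries are scaled. They are shares of reads without a length correction, so only their change between libraries is described, and their 95% exact (Clopper-Pearson) intervals cover counting error only. Map2k1 held 45.2% (42.2% to 48.3%) and 47.4% (44.2% to 50.7%) of Map2k1 and Map2k2 reads in the untreated libraries. After LPS it held 69.4% (65.8% to 72.8%) and 76.8% (73.8% to 79.6%), with no overlap of the intervals between groups. Mapkapk2 held 80.8% and 78.5% of the MK2 and MK3 gene reads untreated and 94.1% and 93.8% after LPS. Of the JNK activator reads, Map2k4 held 48.0% and 44.8% untreated and 56.2% and 53.6% after LPS, where the intervals of untreated replicate 1 (44.2% to 51.8%) and LPS replicate 2 (48.9% to 58.3%) overlapped. The share of Mapk8 in the JNK gene reads had intervals that overlapped across all 4 libraries, at 34.0% and 37.4% untreated and 38.4% and 37.5% after LPS. For Map2k3 and Map2k6, with 39 to 80 reads per library, Map2k3 held 77.5% and 71.2% untreated and 82.1% and 88.9% after LPS, with wide intervals that overlapped. The difference in shares between the groups was not tested.

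**Figure D3:**
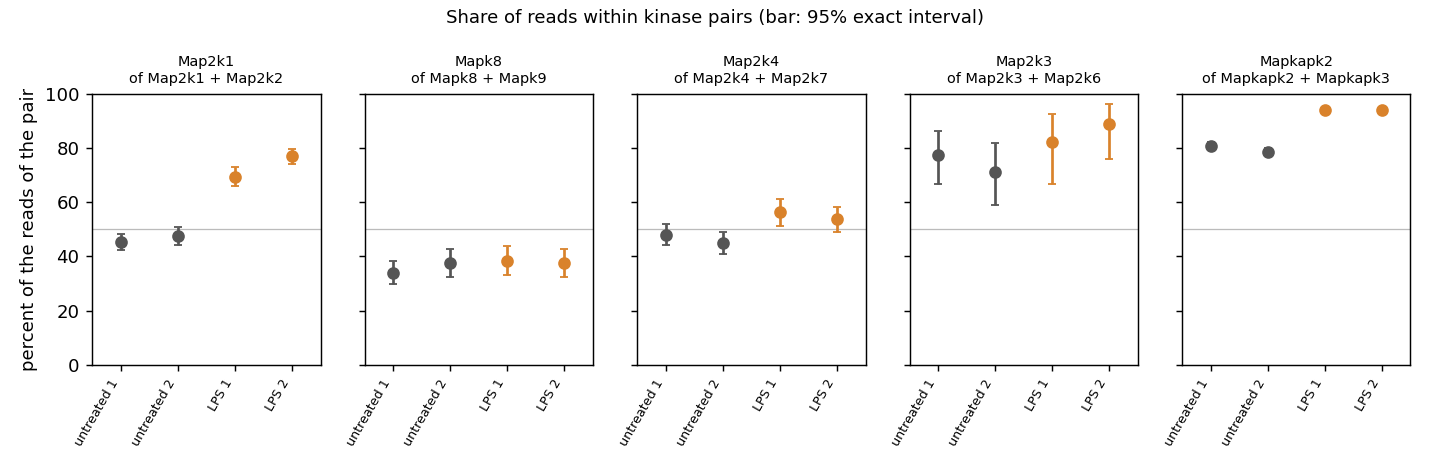
Percent of the reads of 5 kinase pairs that belong to the first-named gene (y axis) in each library (x axis; grey untreated, orange LPS), with 95% exact intervals as bars. The LPS libraries sit above the untreated ones for Map2k1 and Mapkapk2 with intervals apart, and the Mapk8 share stays between 34.0% and 38.4%. The shares are not corrected for transcript GC content.

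Counts by branch rest on few genes. Over all genes edgeR called 24.9% higher and 23.9% lower, and DESeq2 called 1831 of 10920 higher and 1473 lower. No such share over all genes is given for the unadjusted p. Of 4 tested JNK branch genes 3 rose and none fell with edgeR (3 and 0 at an unadjusted p below 0.05), while DESeq2 called 0 in either direction. Map2k4, counted there, encodes a kinase that can activate p38 as well. Of 3 tested p38 branch genes 1 fell and none rose (2 lower and 0 higher at an unadjusted p below 0.05, 1 and 0 with DESeq2). In the ERK5 branch Mapk7 fell and Map2k5 did not pass.

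Per kilobase of transcript, the levels of the 35 genes spanned a wide range. The longest transcript of each symbol in GENCODE vM21 gave the length. In untreated cells Mapkapk2 stood first at 205 CPM per kilobase. A group of similar level followed, with Map2k2 at 46.1, Mapk6 at 43.9, Mapk3 at 42.7, Mapkapk3 at 40.1 and Map2k1 at 39.3 CPM per kilobase. Neighbours in that order mostly lay within the spread of their libraries, as for Mapkapk3 (37.6 and 42.6) and Map2k1 (38.4 and 40.2). After LPS Mapkapk2 stood at 560 CPM per kilobase, Map2k1 at 75.1, Mapk6 at 56.0 and Map2k2 at 27.8. Map2k1 thereby went from the sixth to the second place, and Map4k3 from the 31st (1.28 CPM per kilobase) to the 24th (3.09). The highest MAP3K gene, Map3k3, stood at 21.3 CPM per kilobase untreated and 15.2 after LPS. The lowest levels were those of Map4k1 (0.662 and 0.234) and Map3k13 (0.222 and 0.189).

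**Figure D4:**
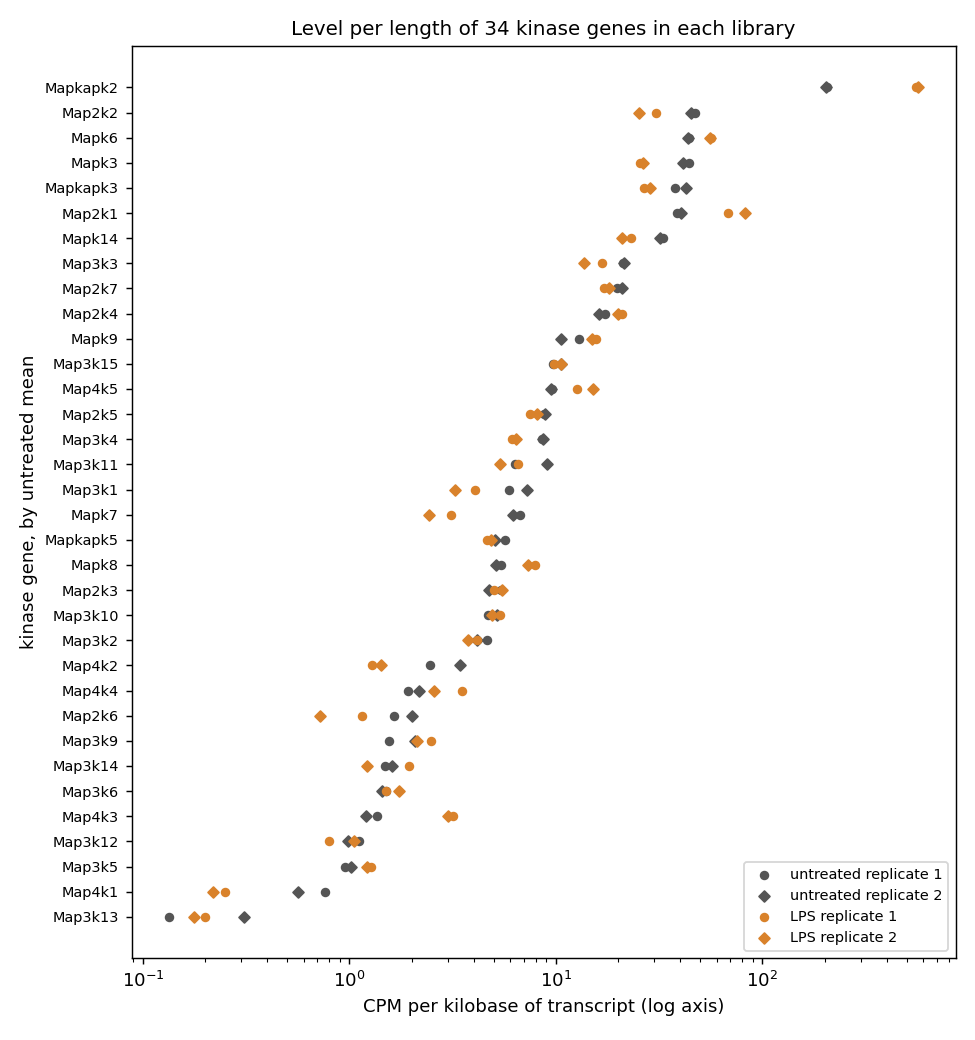
CPM per kilobase of transcript (x axis, log scale) of 34 kinase genes, ordered by their untreated mean (y axis), in each library (grey untreated, orange LPS; circles replicate 1, diamonds replicate 2). Mapkapk2 stands apart at 205 untreated and 560 after LPS, and the genes below it run from 46.1 (Map2k2) to 0.222 (Map3k13) in untreated cells.

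Other genes of the pathway outside the numbered families were read from fixed lists, with the same backgrounds of 24.9% higher and 23.9% lower. Their fold changes are given without GC correction, and the part of transcript GC content in single genes was not tested. Of 14 tested genes of the Ras and Raf entry step, 5 rose and 2 fell. Rap1b, a Ras-like GTPase gene, went from 132 and 134 CPM to 367 and 330 CPM (log2 change 1.39 ± 0.09 SE), and Nras from 102 and 99.9 CPM to 145 and 156 CPM (0.58, SE 0.10). The exchange factor gene Rasgrp3 fell from 200.3 and 203 CPM to 101 and 98.6 CPM (log2 change -1.01 ± 0.10 SE). Araf and Braf did not pass (log2 fold changes 0.06 and 0.18, SE 0.13 each).

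Of 7 tested kinases that MAPK activate outside the Mapkapk names, 2 rose and 3 fell. The MNK genes, whose products phosphorylate the translation factor eIF4E, both fell: Mknk2 from 177 and 195 CPM to 90.4 and 104 CPM (log2 change -0.93 ± 0.10 SE) and Mknk1 with a log2 fold change of -0.43 (SE 0.13). The RSK genes, targets of ERK, divided, at a transcript GC of 40.5% for Rps6ka3, 54.3% for Rps6ka2 and 57.3% for Rps6ka1. Rps6ka3 (RSK2) rose from 43.5 and 45.2 CPM to 89.0 and 79.2 CPM (log2 change 0.92 ± 0.12 SE) and Rps6ka2 (RSK3) rose as well (1.26, SE 0.27), while Rps6ka1 (RSK1) fell from 64.2 and 71.1 CPM to 47.3 and 37.5 CPM (-0.68, SE 0.13). The MSK genes Rps6ka4 and Rps6ka5 did not pass (log2 fold changes 0.19 and -0.33).

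Among 23 tested scaffolds and binding partners 8 rose and 3 fell. Gadd45b, whose product binds Map3k4 and Map2k7 proteins, rose from 17.6 and 15.5 CPM to 56.2 and 56.3 CPM (log2 change 1.76 ± 0.15 SE), the ERK-binding Pea15a from 50.8 and 56.9 CPM to 113 and 109 CPM (1.05, SE 0.11). Spred1, an inhibitor of the Ras to ERK step, rose too (0.76, SE 0.10), as did Txn1, the thioredoxin gene, whose product holds ASK1 inactive (0.65, SE 0.09). Of 15 tested STE20 and MAP3K-like kinases 7 rose and 2 fell, with Stk3 (MST2) at 14.8 and 12.8 CPM untreated and 33.8 and 37.8 CPM after LPS (log2 change 1.37 ± 0.17 SE) and Lrrk2 at 33.0 and 34.6 CPM and 74.9 and 67.4 CPM (1.07, SE 0.13). Taok1 and Taok3, MAP3K-type kinase genes, rose by 0.48 (SE 0.10) and 0.66 (SE 0.16) on the log2 scale.

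Transcript GC content and the scaling moved with the calls. The 9 members that rose had a median transcript GC of 45.7% (40.1% to 57.6%) and the 9 that fell of 54.6% (49.4% to 60.4%). Over all genes the median log2 fold change was 0.27 in the fifth of lowest GC (29.6% to 43.7%) and -0.31 in that of highest GC (55.3% to 72.5%). With offsets corrected for GC content 15 of the 18 calls were kept, and those of Map2k4, Map3k4 and Mapk8 were lost. Map3k9 and Map3k10 were then called higher (log2 fold changes 0.71 and 0.54, edgeR adjusted p = 0.0219 and 0.0155) and Map3k2 lower (-0.44, 0.0038). Mapkapk2, at 57.6% GC among the more GC-rich transcripts, rose by 1.77 on the log2 scale after the correction. The falls were smaller with it, at -0.33 for Map2k2, -0.39 for Mapk3, -0.28 for Map3k3 and -0.34 for Mapkapk3. Of the called members 50% were lower with the scaling used here (TMM, trimmed mean of M-values), 61.1% with upper quartile scaling, 61.5% with DESeq2 and 85.0% with library size alone. Over all called genes those shares were 49.0%, 57.7%, 44.6% and 76.8%, in the same order, so that the share went up with DESeq2 among the members and down among all genes. The median of all genes was -0.35 under library size alone. Under library size alone 3 of 35 members were higher (Map4k3, Map2k1, Mapkapk2) and 17 lower, beside 1457 higher and 4817 lower of all 10920 genes. Called in all 16 alternatives were 10 of the 18: Mapkapk2, Map2k1 and Map4k3, which rose, and Mapk7, Map4k2, Map3k1, Map2k2, Mapk3, Mapk14 and Mapkapk3, which fell.

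**Figure D5:**
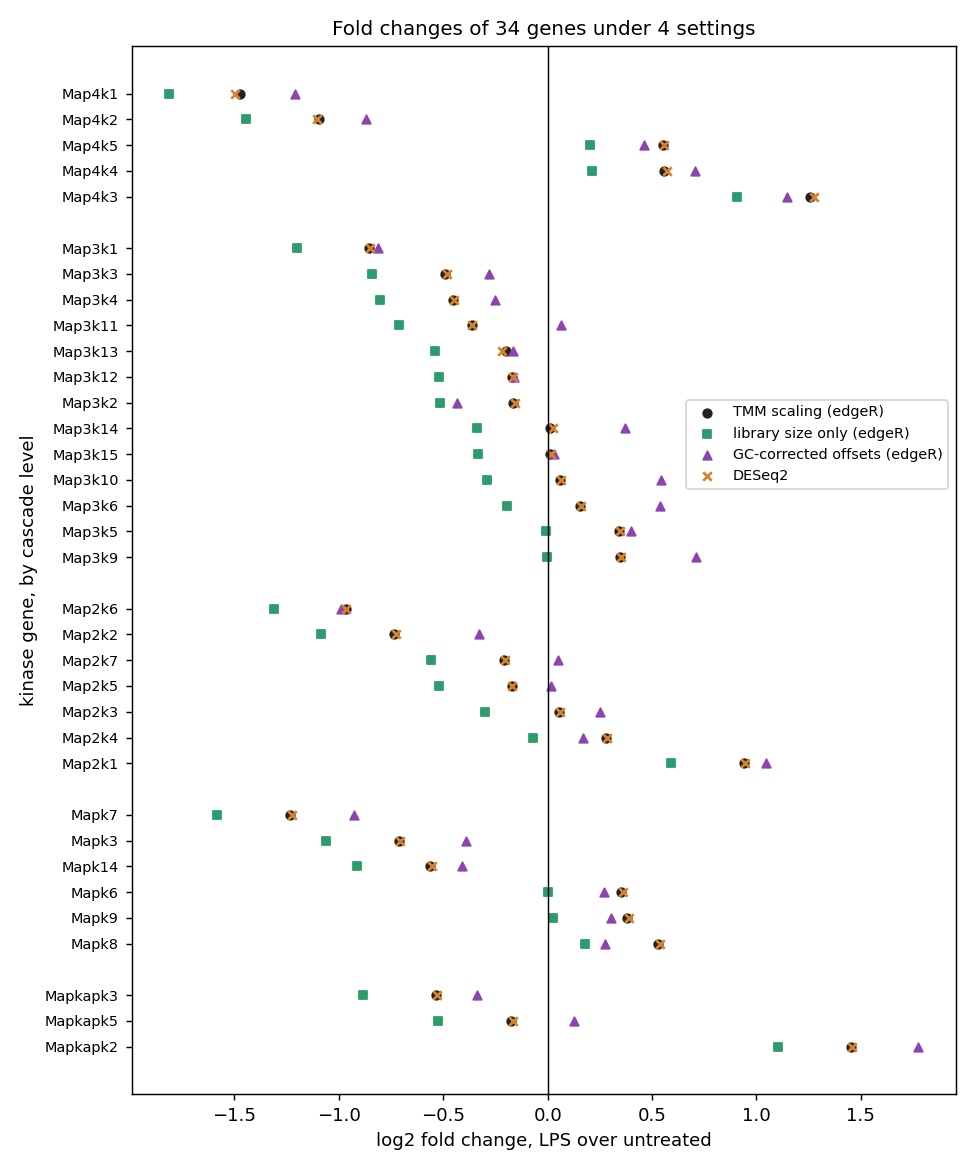
Log2 fold change of 34 kinase genes (x axis) by cascade level (y axis) under TMM scaling, library size alone, GC-corrected offsets and DESeq2. Library size alone moves the genes to the left, Mapk6 to 0.0033 and Map2k4 to -0.07, whereas Mapkapk2 stays between 1.10 and 1.77.

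Exon bases are shared with another gene in GENCODE vM21 by 12 members, 4 of them called, so their counts are less certain. On the opposite strand, Map3k12 shares 1573 exon bases with Pcbp2, Map3k15 603 with Pdha1 and Map4k5 548 with Atl1. The opposite strand held 83.6% to 88.7% of the stranded reads at Map3k12 and 47.3% to 53.4% at Map3k15, and counting was by strand. On the same strand, Mapkapk5 shares 1805 exon bases with Adam1a, Map2k7 1349 with Gm49320 Map3k13 227 with 1300002E11Rik and Map3k14 135 with 1700028N14Rik, reads from which cannot be told apart there. Of these 4 none was called. The called members with shared bases were Map4k5, Map4k3 (108 with Gm9959), Map4k2 (94 with Gm14966) and Mapk7 (89 with Mfap4), all on the opposite strand.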

How the data were processed

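The deposited values are raw counts of reads per gene symbol, which the authors did not normalise, in the layout of STAR's gene counts with 4 summary lines, kept out of all totals. Per the submitters' processing notes the tools were DESeq2, STAR 2.5.1, Trimmomatic 0.33 and CASAVA 1.8.2. The build those notes list is hg19, a human one, and the extraction text mentions human stromal cells, although symbols and organism are mouse. The gene annotation was not given in the sources used here. Per the labels' protocols the libraries were depleted of ribosomal RNA and strand-specific. The reverse-strand counts were used.

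Genes with at least 10 counts over the 4 libraries (10920) were tested with edgeR 4.0.16 in R 4.3.3 (TMM, robust quasi-likelihood, two-sided, treatment as the only term, Benjamini-Hochberg over all genes, threshold 0.05). The SE is the log2 fold change over the root of F. The fit was run on simulated counts with few genes changed and no trend in GC content. That run cannot say how the calls fare with many changed genes or such a trend. Named in full are up to 6 called members per level and 20 fixed ones, elsewhere up to 4 called genes per list; Mknk1, Araf, Braf, Rps6ka4 and Rps6ka5 were added after their values were seen. Alternatives were other scalings, DESeq2 1.42.0, filters, unstranded counts, a replicate block, GC-corrected offsets (99.4% of tested genes had a GC value), leaving out 5 abundant entries and leaving out each library. Counts of replicate libraries varied beyond sampling error (chi-square over degrees of freedom 1.52 untreated, 2.44 LPS). Values of 1 member and 1 listed gene are not reported here. The members, lists, rule for names and alternatives were chosen with earlier results of these data known.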

Additional observations from a re-analysis of the deposited data

Results flagged for a closer look

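Reads on the strand opposite to a gene are outside the counts tested above, other than in the alternative with unstranded counts. Of 5 members with at least 10 such reads over the 4 libraries, 3 had both LPS libraries above both untreated libraries on the CPM scale of the main counts, as did 38.6% of 2101 genes with as many such reads. At Mapkapk2 the opposite strand was at 0.958 and 0.664 CPM untreated and at 4.83 and 12.7 CPM after LPS, or 0.162% and 0.114% of the stranded reads of the gene against 0.305% and 0.778%. In a fit of the opposite-strand counts of those genes, scaled by their own totals, of which 266 were higher and 159 lower, Mapkapk2 was higher (log2 fold change 3.12, edgeR adjusted p = 1.9e-07). At Mapk6 the values were 0.383 and 0 CPM untreated and 0.690 and 1.81 CPM after LPS, from 2, 0, 2 and 6 reads (log2 fold change 2.22, edgeR adjusted p = 0.171). At Map3k15 they were 45.6 and 41.4 CPM untreated and 49.0 and 52.6 CPM after LPS, while the fitted log2 fold change was -0.03 (edgeR adjusted p = 0.917), the other sign, where Pdha1 lies on that strand.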

How the results depend on the processing

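Of 542 pairs of a member and an alternative (34 members), 465 kept direction and side of the threshold, 30 lost the call, 16 gained it and 31 turned sign, 1 of them in a called member (Map2k4) and 1 with a gained call (Map3k15, lower with library size alone, edgeR adjusted p = 0.0363). The cause of each change was not tested. With library size alone, 1 MAP4K gene was higher and 2 lower, 6 MAP3K genes were lower, 1 MAP2K gene was higher and 4 lower. In that setting 0 MAPK genes were higher, and of all 35 members 3 were higher and 17 lower. Of other pathway genes, from lists of 14, 23, 7 and 15 tested, 11 were higher and 23 lower, against 22 and 10 with TMM scaling. Over all 10920 genes 1457 were higher and 4817 lower with library size alone, against 2717 and 2609 with TMM scaling. With DESeq2, 1 MAP2K gene and 1 MAPK gene were higher, 5 members in all were higher and 5 other pathway genes lower. DESeq2 called 1831 of all genes higher and 1473 lower. With upper quartile scaling 1 MAP2K gene was higher and 2 lower, beside 2306 and 3142 of all genes. GC-corrected offsets called 2 MAP3K genes higher, with or without the replicate block, beside 2653 and 2768 of all genes. MAP2K genes called higher numbered 1, not 2, with no filter beyond 1 count, unstranded counts, the replicate block, GC-corrected offsets without and with the block, and 1 to 2 when a library was left out. The replicate numbers share only a number: across 8031 genes the differences between replicates 1 and 2 correlated at -0.02 between the groups. With the block 8 members were higher and 9 lower, beside 2690 and 2570 of all 10920 genes. The block ended the call of Map2k4 and, together with GC-corrected offsets, that of Map3k3 (edgeR adjusted p = 0.0671).

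The median log2 fold change of the members, -0.17, was -0.26 with upper quartile scaling, -0.52 with library size alone, 0.0174 with edgeR's own expression filter, which left 33 members, 0.050 with GC-corrected offsets, 0.0486 with these and the block, and -0.114 to -0.0377 when a library was left out. Under library size alone the sign turned for Map2k3 (-0.30), Map2k4 (-0.0713), Map3k10 (-0.29), Map3k14 (-0.34), Map3k15 (-0.34), Map3k5 (-0.0090), Map3k6 (-0.20) and Map3k9 (-0.00085). Upper quartile scaling turned Map2k3 (-0.0419), Map3k10 (-0.0343), Map3k14 (-0.0848) and Map3k15 (-0.0806), and the filter of 1 count turned Map3k14 (-0.0062) and Map3k15 (-0.0018). GC-corrected offsets, without and with the block, turned Map2k5 (0.0142 and 0.0132), Map2k7 (0.050 and 0.0486), Map3k11 (0.0636 and 0.0632), and Mapkapk5 (0.125 and 0.132). Leaving out a library gave Map2k3 -0.0377 to 0.152, Map3k10 -0.0162 to 0.127, Map3k12 -0.39 to 0.0034, Map3k13 -0.71 to 0.47, Map3k14 -0.35 to 0.33 and Map3k15 -0.0551 to 0.0731. Leaving out a library leaves a group with 1 sample, which is then assumed to vary like the other group. Depth limits Map4k1, Map2k6, Map3k5 and Map3k13, with under 30 reads in every library.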
